A study of Mus musculus with 36 samples.

Results

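The genes described here are 37 genes of cell division and DNA replication, chosen by name and looked up in 36 lung RNA libraries. All 37 were found among the 46078 genes of the deposited count table, and all 37 were among the 16903 genes expressed highly enough to be tested. They fall into 7 roles: the helicase that opens replication origins with its sliding clamp (Mcm2, Mcm3, Mcm4, Mcm5, Mcm6, Mcm7 and Pcna), the supply of deoxynucleotides (Rrm1, Rrm2 and Tyms), cyclins with Cdk1 and their regulators (Ccna2, Ccnb1, Ccnb2, Cdk1, Foxm1 and Melk), mitotic kinases and the chromosomal passenger complex (Plk1, Aurka, Aurkb and Birc5), the spindle checkpoint and the anaphase-promoting complex (Bub1, Bub1b, Cdc20 and Ube2c), chromosome and kinetochore proteins (Mki67, Top2a, Cenpe, Cenpf and Kif2c), and spindle and cytokinesis proteins (Kif4, Kif11, Kif20a, Kif23, Tpx2, Nusap1, Prc1 and Ect2).

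All libraries came from whole lung pieces of wild type female C57BL/6 mice, an inbred laboratory strain, each given a single intranasal instillation. Mice of the groups US, S and L received 50 μg of graphene oxide, which is graphene (a sheet of carbon) after oxidation, in 3 lateral sizes (ultrasmall, small and large in the naming used by the study), and mice of group D received the 5% dextrose carrier with 0 μg. Lungs were taken 1, 7 and 28 days later at ages of 9, 10 and 13 weeks, giving 12 groups of 3 libraries (n = 3 throughout). The study asked whether sheet size shapes the lung's response. The labels do not say which animal gave which library, so p-values reflect only how far these samples spread, which may be partly technical.

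A dividing cell first licenses its origins by loading the Mcm2 to Mcm7 ring, copies its DNA in S phase with the help of the Pcna clamp, and then builds a mitotic spindle under the control of Cdk1 bound to A- and B-type cyclins. Most genes of the mitotic step are transcribed in G2 and M phase and are nearly silent in resting cells. The licensing genes are also made in cells that are not in mitosis. In adult lung few cells divide at rest, and injury can bring endothelial cells, alveolar type 2 cells, airway cells and resident or incoming macrophages and lymphocytes into the cycle.

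The libraries held between 16154696 and 23808264 counts, apart from S day 7 replicate 2 with 80566751. Lung markers were abundant in every library: Sftpc, made by alveolar type 2 cells, ran from 10670 to 28420 CPM (counts scaled to a common library total with TMM factors), and Ager, made by alveolar type 1 cells, from 2038 to 3795 CPM. For the members, the lowest count of Plk1 in any library was 22, the smallest among the 37. In 14 of the 37 genes another annotated gene overlaps the span, on the opposite strand for 12 of them (Exosc9 for Ccna2, Elovl1 for Cdc20, Tnnc2 for Ube2c, Pdzd11 for Kif4, Cdc23 for Kif20a, Cops6 and Ap4m1 for Mcm7, among others). Whether the counting used strand is not stated in the labels or file headers, and shared reads cannot be apportioned for these genes. On GRCm38, the mouse build of the files, the annotated spans with their exons and introns are: Mki67 on chromosome 7, 135689788 to 135716379 (minus strand, ENSMUSG00000031004), Top2a on chromosome 11, 98992943 to 99024189 (minus strand, ENSMUSG00000020914) and Plk1 on chromosome 7, 122159437 to 122169875 (plus strand, ENSMUSG00000030867). Of the genes named most often below, Pcna lies on chromosome 2, 132249162 to 132253314 (minus strand, ENSMUSG00000027342), Kif2c on chromosome 4, 117159639 to 117182639 (minus strand, ENSMUSG00000028678) and Mcm7 on chromosome 5, 138164583 to 138172422 (minus strand, ENSMUSG00000029730).

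Compared per unit of length, most of the replication genes were more abundant than the mitosis genes. Pcna, the clamp that holds polymerases on DNA, had the highest median over 36 libraries, at 98.6 TPM (transcript abundance scaled for gene length and library total), with a range of 79.2 to 120.5. Mcm7 and Mcm6 followed at medians of 25.6 and 25.1 TPM, and their ranges of 22.0 to 36.02 and 18.9 to 33.9 overlapped almost wholly. Among mitosis genes Top2a, the topoisomerase that untangles sister chromosomes, was the most abundant at a median of 16.4 TPM. That was above Mcm2 and Mcm5, at 11.1 and 10.6 TPM. Rrm2 and Tyms, at 9.44 and 6.31 TPM, lay among the mitosis genes. Mki67, the protein that coats mitotic chromosomes, stood at 7.09 TPM, Cdk1 at 6.23 TPM and Plk1 at 2.40 TPM. The lowest median was that of Cenpf, a kinetochore protein, at 1.22 TPM.

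In none of the 30 comparisons did any of the 37 genes pass the test. Each comparison was tested with edgeR's quasi-likelihood F test (two-sided, Benjamini-Hochberg adjustment over all 16903 genes, threshold 0.05). DESeq2 called 1 member in 1 comparison (Pcna in US against D at day 7), and limma on log2(TPM + 1) called 0. The precision of this result is limited: the 95% interval of a member's log2 fold change had a median half-width of 0.67 in US against D at day 1, a 1.59-fold difference. It ran from 0.65 to 0.68 over the comparisons of 2 groups and was 0.94 or more where the effect of a size was compared between days. Because these are bulk samples, fewer dividing cells and less of these RNAs per cell cannot be told apart. Within a day the 3 comparisons with D share the D libraries, and the pairs of sizes share libraries with them. The mitosis genes also varied together between libraries, so a count of members is not a count of independent genes.

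**Figure D1:**
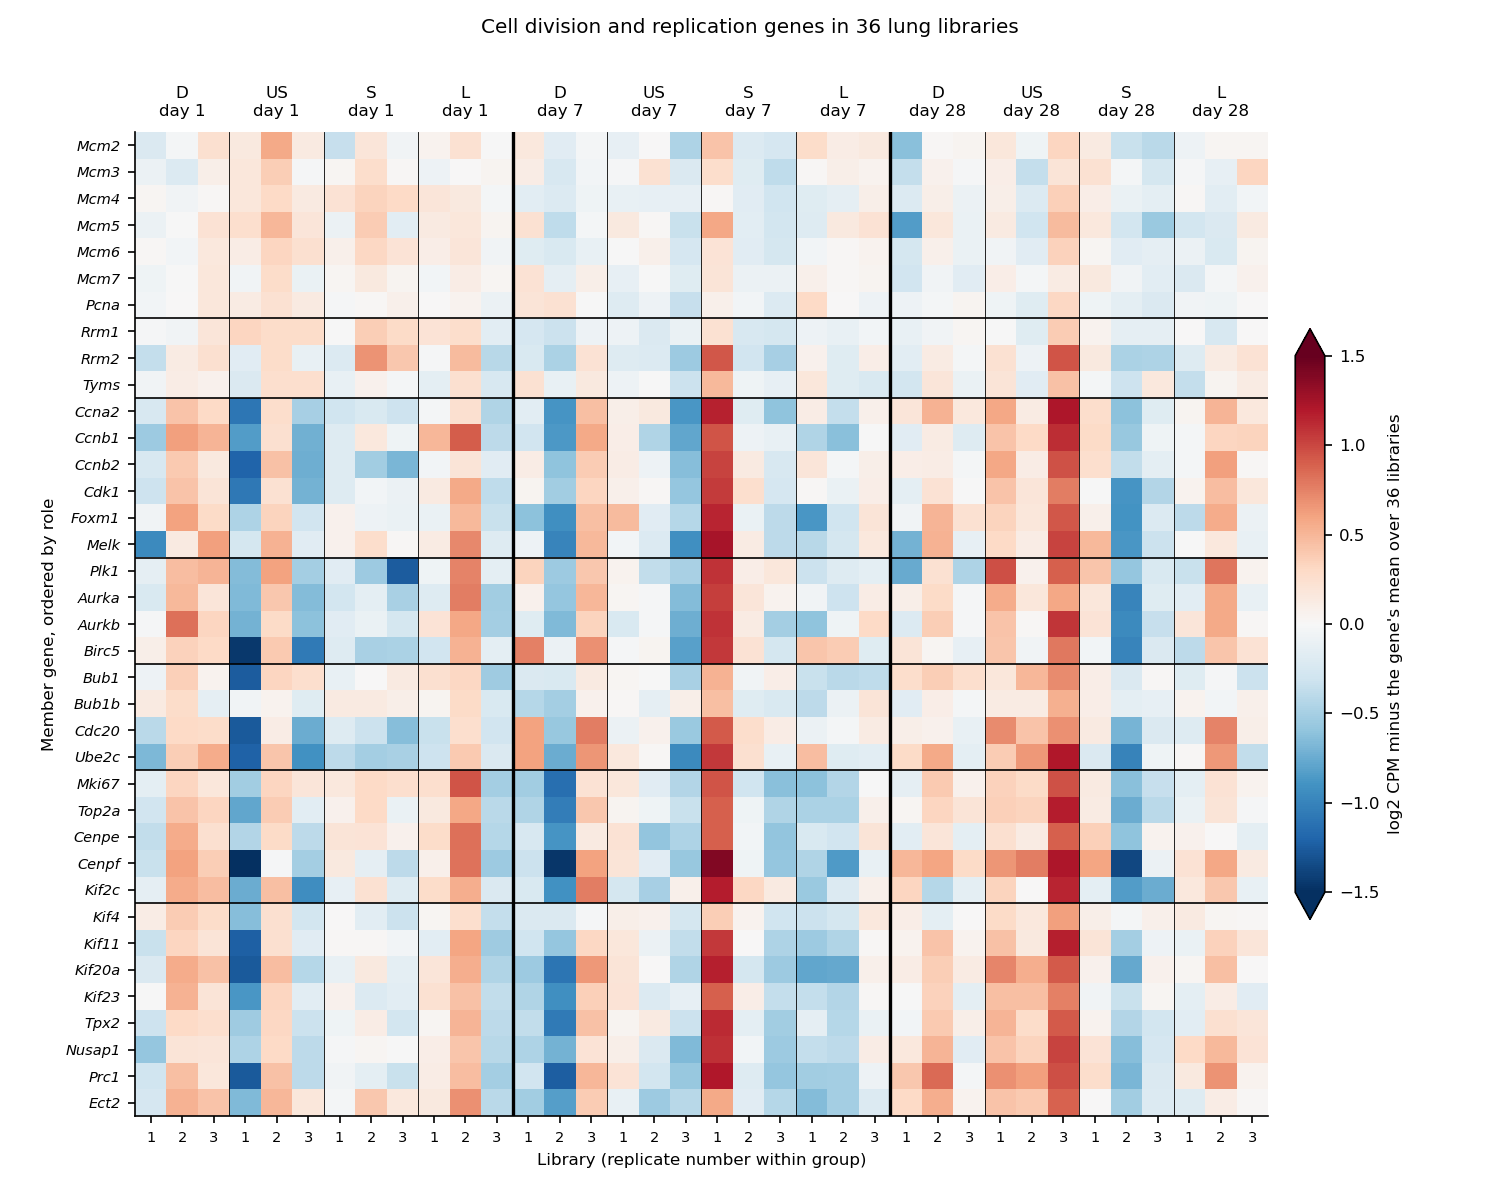
Each row is 1 of the 37 member genes, ordered by role, and each column 1 of 36 libraries, grouped by material and day; the colour is log2 CPM minus the gene's mean over all libraries. S day 7 replicate 1 and US day 28 replicate 3 are red over nearly all rows, US day 1 replicate 1 is blue over the mitosis rows, and the upper rows (helicase, clamp and nucleotide supply) vary least.

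At day 1 the mitosis genes lay lower in US than in D on average and the replication genes slightly higher, and no member passed the test. In US against D, 0 of 37 members passed the adjusted test, where 0.0887% of all genes did, and 1 of 37 (Kif4) had an unadjusted p under 0.05, where 16.1% of all genes did. Values were below 0 for 28 members, with a median log2 fold change of -0.34 beside 0.0058 over all genes. The 2 sets differed in sign: the 7 helicase and clamp genes lay between 0.012 and 0.29, and the 5 chromosome and kinetochore genes between -0.87 and -0.093.

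Kif4, a motor that travels on chromosome arms and the spindle midzone, measured at day 1 6.71, 8.10 and 7.48 CPM in D, 4.00, 7.30 and 5.11 in US, 6.25, 5.55 and 4.98 in S and 6.34, 7.37 and 4.84 in L. Its lowest library was US replicate 1, and US replicate 2 alone of that group lay within the D range. The log2 fold change in US against D was -0.44 ± 0.19 (SE; 95% interval -0.84 to -0.051), with an adjusted p of 0.254 in edgeR's test. Birc5 (survivin), which steers Aurora B to centromeres, read 6.27, 7.51 and 7.28 CPM in D, 2.17, 7.78 and 2.84 in US, 5.15, 4.20 and 4.27 in S and 4.85, 8.45 and 5.31 in L. All 3 S values and 2 of the US values were under every D value, while US replicate 2 exceeded all 3 of them. The log2 fold change of Birc5 in US against D was -0.72 ± 0.37, with an edgeR adjusted p of 0.333.

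In S against D at day 1, 0 of 37 members passed the adjusted test (0.0473% of all genes) and 3 had an unadjusted p under 0.05 (21% of all genes): Mcm4 on the high side, Plk1 and Kif4 on the low side. Mcm4, a helicase subunit, gave day 1 values of 38.1, 36 and 37.8 CPM in D, 42.1, 45.8 and 41.0 in US, 43.2, 47.1 and 45.9 in S and 42.4, 41.3 and 36.5 in L. All 3 S libraries lay above the 3 D libraries, by a log2 fold change of 0.28 ± 0.11 (interval 0.062 to 0.51, edgeR adjusted p = 0.177). Plk1, the kinase that drives mitotic entry and spindle assembly, had 2.61, 3.96 and 4.08 CPM in D, 1.83, 4.34 and 2.01 in US, 2.55, 1.96 and 1.203 in S and 2.74, 4.79 and 2.58 in L. The S libraries were all below the D libraries, at a log2 fold change of -0.90 ± 0.39 (interval -1.70 to -0.092, edgeR adjusted p = 0.203). The libraries of S and D did not overlap in 5 of the 37 members, and in 32.4% of all genes. The median over the 37 was -0.11.

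For L against D at day 1, 0 of 37 passed the adjusted test (0.0237% of all genes) and 0 had an unadjusted p under 0.05 (4.94% of all genes). The median was -0.053, and the 2 members with the smallest p were Kif4, at -0.26 ± 0.19, and Mcm4, at 0.10 ± 0.11. Mki67, the histological marker of cycling cells, stood at day 1 at 31.1, 42.7 and 38.6 CPM in D, 23.9, 42.8 and 38.9 in US, 38.2, 42.2 and 41.0 in S and 40.9, 65.8 and 24.1 in L. The groups overlapped, and L replicate 2 held the highest value of the day.

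Between sizes at day 1 no member passed the test either. In S against US, 0 of 37 passed the adjusted test (0.0177% of all genes) and 0 had an unadjusted p under 0.05 (13.7% of all genes), with Mcm2 and Pcna first by p. Mcm2 measured 17.1, 19.5 and 23.5 CPM in D, 22.1, 29.5 and 21.9 in US, 15.7, 22.5 and 19.1 in S and 20.7, 23.4 and 19.9 in L, and its log2 fold change was -0.36 ± 0.19. Pcna measured 76.6, 79.0 and 88.4 CPM in D, 85.3, 92.1 and 86.3 in US, 77.3, 79.7 and 82.8 in S and 78.9, 81.7 and 73.8 in L, with all S values under all US values and a log2 fold change of -0.14 ± 0.11. The S and US libraries did not overlap in 2 of the 37 members, and in 15.7% of all genes. In L against US, 0 of 37 passed the adjusted test (0% of all genes) and Ccnb1 alone had an unadjusted p under 0.05 (6.27% of all genes). Ccnb1, the cyclin that activates Cdk1 at the entry into mitosis, gave 3.79, 8.51 and 7.89 CPM in D, 3.11, 6.56 and 3.36 in US, 4.84, 6.16 and 5.30 in S and 7.83, 10.4 and 4.21 in L, and 0.79 ± 0.37 for L over US. Cdk1 itself gave 8.20, 13.7 and 11.7 CPM in D, 4.84, 11.9 and 6.25 in US, 8.90, 9.91 and 9.57 in S and 11.1, 15.1 and 7.84 in L, with a log2 fold change of 0.57 ± 0.31. US replicate 1 was the lowest library of the day for both genes. The median of L against US was 0.27, and it was 0.52 without US replicate 2, with 11 members at an unadjusted p under 0.05, and -0.027 without L replicate 2, with 0. In L against S, 0 of 37 passed the adjusted test (0% of all genes) and 1 (Plk1, 0.82 ± 0.39) had an unadjusted p under 0.05 (10.4% of all genes), followed by Mcm4 at -0.18 ± 0.11.

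Averaged over the 27 mitosis genes, US replicate 1 had the lowest level of day 1, though some genes, among them Plk1 and Bub1b, were lowest in other libraries. In it all 27 mitosis genes were under their own mean over the 36 libraries, with a mean difference of -0.86 on the log2 scale, while 6 of the 7 helicase and clamp genes were above theirs, by 0.13 on average. That library also held the most RNA of neutrophil markers: the summed level of 10 such genes was 841, 212 and 285 CPM in the US libraries and 152, 167 and 211 CPM in D, with none of the 10 at 0 in either group. Its summed level of 12 T and NK cell markers was the lowest, with 66.7, 182 and 155 CPM in US against 194, 217 and 192 CPM in D. In US against D, 1 of the 10 neutrophil markers rose (Il1r2, 4.35 ± 0.85, edgeR adjusted p = 0.0351) and 0 of the 12 T and NK markers passed the test. Other lists stood apart in US replicate 1 as well. For inhibitors of cyclin-dependent kinases and p53 brakes the sum was 1262, 795 and 834 CPM in US replicates 1 to 3. It was 3214, 1936 and 2150 CPM for alveolar macrophage markers and 749, 586 and 475 CPM for smooth muscle markers. The part of these genes and cell types in the member values was not tested. Without US replicate 1 the median of the members moved from -0.34 to -0.080, and 0 members passed the test. Without US replicate 2, the library in which Mcm2, Mcm3 and Mcm7 were at their highest of all 36, the median was -0.62, 15 members had an unadjusted p under 0.05 and 2 passed the adjusted test: Birc5, at -1.49 with an adjusted p of 0.0224, and Kif4, at -0.71 with an adjusted p of 0.0381 (edgeR).

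At day 7 the members of S stood above those of D on average, in 1 of the 3 libraries, and no member passed the test in any of the comparisons. In S against D, 0 of 37 passed the adjusted test (0.45% of all genes) and 0 had an unadjusted p under 0.05 (9.33% of all genes). Fold changes were above 0 for 32 members, with a median of 0.38. Top2a measured 52.98, 27.1 and 20.7 CPM in S and 20.7, 13.9 and 37.5 CPM in D. Mki67 measured at day 7 23.9, 15.7 and 39.8 CPM in D, 38.6, 30.6 and 25.2 in US, 66.0, 28.0 and 22.2 in S and 22.3, 25.2 and 34.2 in L. In both genes S replicate 1 stood far above the other S libraries, which lay among the D values. S replicate 1 exceeded both other S libraries in all 37 members and held the highest value of all 36 libraries in 19 of them. Its summed level of 10 monocyte and interstitial macrophage markers lay between those of its replicates (785, 689 and 898 CPM), and its 12 T and NK markers were slightly lower (179, 218 and 199 CPM). Other markers stood further apart in it: in S replicates 1 to 3 the summed level was 1136, 2599 and 3010.0 CPM for erythroid cells, 26660.0, 36560.0 and 41640.0 CPM for club and secretory airway cells and 15.0, 29.3 and 35.8 CPM for marrow granulocyte precursors. Replicate 1 was the lowest in each, and the part of these cells in the member values was not tested. Without S replicate 1 the median of S against D was -0.054 and 12 members were above 0, and without D replicate 3 the median was 0.66 and 14 members had an unadjusted p under 0.05.

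Pcna and Kif23 came first by p in S against D at day 7. Pcna read 90.1, 92.2 and 78.3 CPM in D, 68.5, 74.7 and 62.0 in US, 82.5, 76.4 and 68.4 in S and 97.0, 79.2 and 74.7 in L at that time, and -0.20 ± 0.11 for S over D. Kif23, a motor of the central spindle needed for cytokinesis, read 8.83, 6.37 and 15.4 CPM in D, 13.9, 10.4 and 11.03 in US, 22.4, 12.9 and 9.45 in S and 9.42, 8.91 and 12.2 in L, with a log2 fold change of 0.54 ± 0.28. The S and D libraries overlapped in both genes.

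In US against D at day 7 the clamp gene was the single member near the threshold. Here 0 of 37 passed the adjusted test (2.09% of all genes) and 1, Pcna, had an unadjusted p under 0.05 (25.7% of all genes). All 3 US values of Pcna were below all 3 D values, and the log2 fold change was -0.35 ± 0.11 (interval -0.56 to -0.13, edgeR adjusted p = 0.0644). It was the 1 member of 37 whose US and D libraries did not overlap, which was so for 19.0% of all genes. DESeq2 called this gene, with an adjusted p of 0.0347, in a comparison where it called 8.03% of all genes. Next by p was Birc5, with day 7 values of 9.93, 5.55 and 9.50 CPM in D, 5.83, 6.10 and 3.37 in US, 12.3, 6.84 and 4.90 in S and 7.86, 7.66 and 5.21 in L and -0.71 ± 0.36 for US over D. The median over the members was -0.044.

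In L against D at day 7, 0 of 37 passed the adjusted test (0.154% of all genes) and 0 had an unadjusted p under 0.05 (4.87% of all genes), with a median of -0.017. Mcm6, a helicase subunit, came first, with 43.6, 42.3 and 45.8 CPM in D, 49.4, 51.9 and 41.5 in US, 57.0, 44.1 and 41.1 in S and 48.0, 50.1 and 51.3 in L and a log2 fold change of 0.18 ± 0.12. Cdc20, which activates the anaphase-promoting complex, came second, with 13.3, 5.88 and 14.9 CPM in D, 8.26, 9.14 and 5.96 in US, 16.6, 10.5 and 9.45 in S and 8.22, 8.55 and 9.56 in L and a log2 fold change of -0.37 ± 0.31. D replicate 2 was low for Cdc20, and in 36 of the 37 members it lay under both other D libraries. For Mki67 the D group of day 7 averaged 26.5 ± 12.2 CPM (SD), with that library at the bottom.

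Between sizes at day 7 the same S library stood out. In S against US, 0 of 37 passed the adjusted test (0.142% of all genes) and 2 (Kif2c and Cdc20) had an unadjusted p under 0.05 (13.2% of all genes). Kif2c, which removes tubulin from microtubule ends at centromeres, measured 2.61, 1.63 and 5.20 CPM in D, 2.56, 2.16 and 3.22 in US, 6.93, 3.81 and 3.35 in S and 2.08, 2.66 and 3.24 in L. Its log2 fold change in S over US was 0.81 ± 0.37, and that of Cdc20 was 0.64 ± 0.31. In L against S, 0 of 37 passed the adjusted test (0.154% of all genes) and 2 (Bub1, -0.57 ± 0.25, and Kif2c, -0.80 ± 0.37) had an unadjusted p under 0.05 (6.69% of all genes). Bub1, a checkpoint kinase at unattached kinetochores, measured 6.85, 6.80 and 8.75 CPM in D, 8.12, 7.93 and 5.71 in US, 11.5, 7.71 and 8.56 in S and 6.35, 6.05 and 6.12 in L, with every L library under every S library. The L and S libraries did not overlap in 3 of the 37 members, and in 11.7% of all genes. The medians of S against US and of L against S were 0.39 and -0.45, and without S replicate 1 they were -0.056 and 0.032. Without S replicate 3 the counts at an unadjusted p under 0.05 were 12 and 16, and without S replicate 2 they were 7 and 9. In L against US, 0 of 37 passed the adjusted test (0.00592% of all genes) and 1 (Pcna, 0.29 ± 0.11) had an unadjusted p under 0.05 (15% of all genes). Mcm2 was next, with 22.2, 17.7 and 19.5 CPM in D, 18.3, 20.1 and 14.4 in US, 26.9, 17.3 and 16.7 in S and 24.1, 21.5 and 22.0 in L and 0.36 ± 0.19 for L over US.

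**Figure D2:**
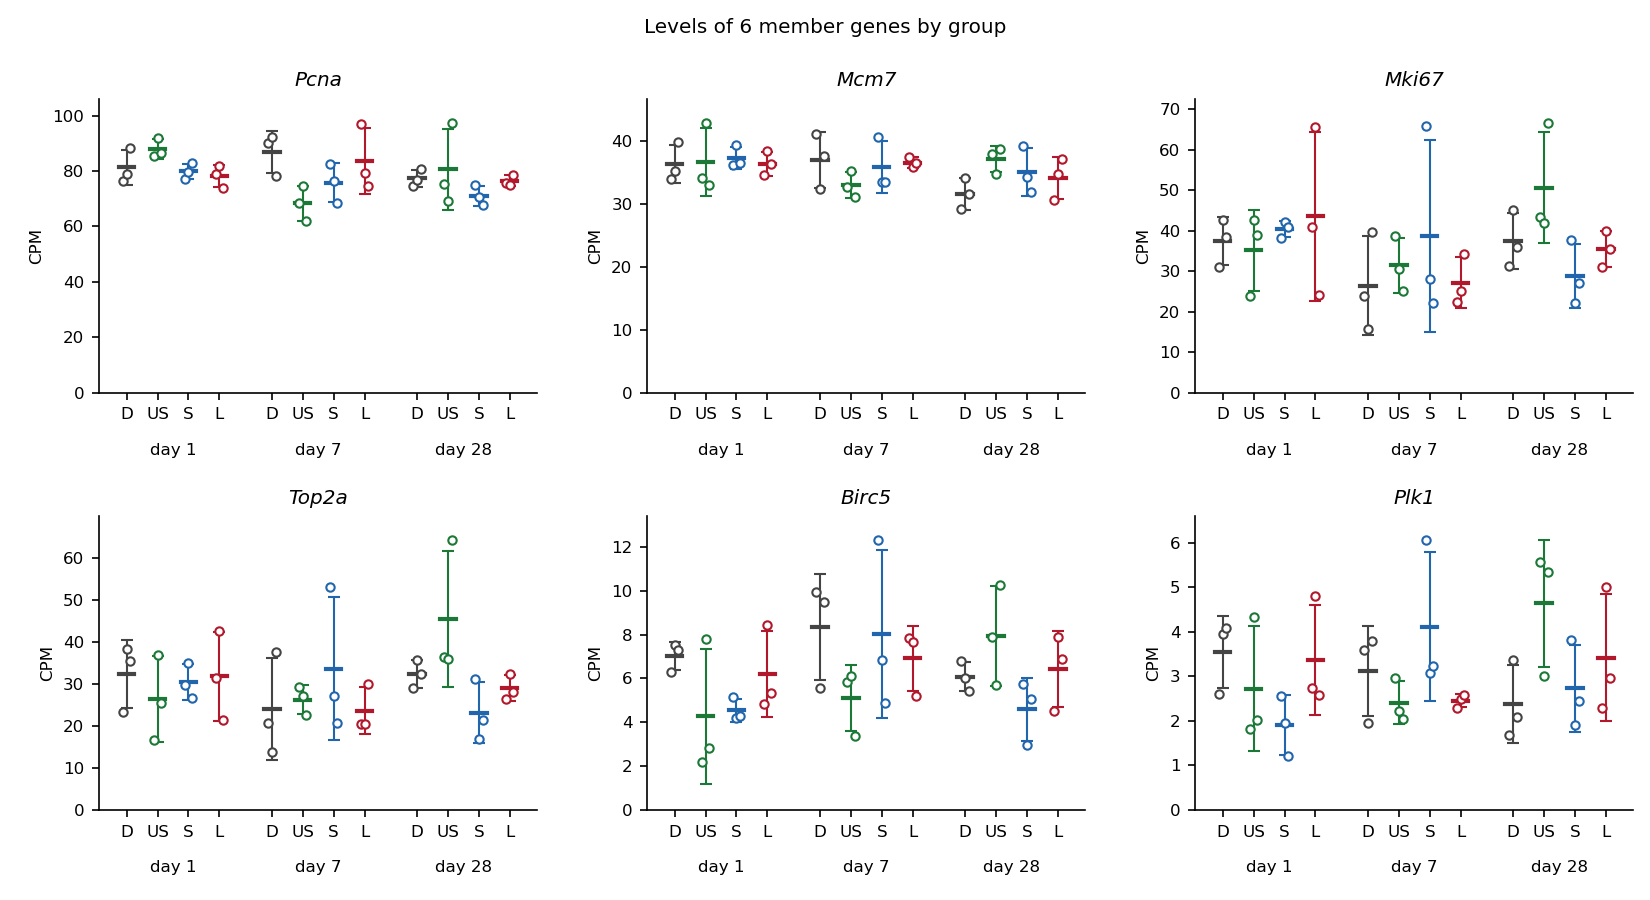
CPM of 6 members by group: open points are the 3 libraries, thick bars the group mean and whiskers 1 SD, with a linear axis from 0. Pcna and Mcm7 vary little, while Mki67, Top2a, Birc5 and Plk1 each have 1 high library in S at day 7 and their highest day 28 value in US.

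At day 28 the members stood higher in US than in D and lower in S than in US, in the median, without a member passing the test. In US against D, all 37 fold changes were above 0, with a median of 0.43 on the log2 scale beside 0.013 over all genes. Of the 37 members, 0 passed the adjusted test (0.0237% of all genes) and 2 (Plk1 and Mcm7) had an unadjusted p under 0.05 (6.02% of all genes). In 10 of the 37 all 3 US libraries lay above all 3 D libraries, which was so for 7.25% of all genes.

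Plk1 measured at day 28 1.69, 3.36 and 2.08 CPM in D, 5.58, 3.00 and 5.34 in US, 3.82, 1.92 and 2.45 in S and 2.28, 5.01 and 2.96 in L. US replicates 1 and 3 were high and US replicate 2 lay within the D range, for a log2 fold change of 0.97 ± 0.38 (interval 0.19 to 1.74, edgeR adjusted p = 0.695). Mcm7, the helicase subunit with the smallest range of all 37 over the libraries, measured 29.1, 34.2 and 31.5 CPM in D, 37.9, 34.8 and 38.8 in US, 39.2, 34.2 and 31.8 in S and 30.6, 34.8 and 37.1 in L, and all US values were above all D values (0.23 ± 0.11, interval 0.013 to 0.45, adjusted p = 0.801). Mki67 measured 31.4, 45.1 and 35.97 CPM in D, 43.5, 42.01 and 66.6 in US, 37.6, 22.2 and 27.1 in S and 31.0, 39.9 and 35.6 in L. US replicate 3 stood alone at the top, and the other 2 US libraries lay within the D range.

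Against US the day 28 levels of S were lower across the mitosis genes. Fold changes in S against US were below 0 for all 37 members, with a median of -0.73. Of the 37, 0 passed the adjusted test (0% of all genes, smallest adjusted p 0.9 in edgeR), and 21, all lower in S, had an unadjusted p under 0.05 (5.44% of all genes). Those 21 were Rrm2 and 20 mitosis genes. All 3 US libraries were above all 3 S libraries in 19 members, which was so for 7.21% of all genes. Since the mitosis genes varied together between libraries, these counts are not made of independent genes.

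Kif2c came first, with 3.83, 2.28 and 2.77 CPM in D, 3.85, 3.08 and 6.74 in US, 2.77, 1.71 and 1.82 in S and 3.42, 4.07 and 2.84 in L at day 28 and a log2 fold change of -1.11 ± 0.38 for S over US (interval -1.89 to -0.34, edgeR adjusted p = 0.9). Top2a followed, with 29.1, 35.7 and 32.5 CPM in D, 36.3, 35.8 and 64.1 in US, 31.1, 16.9 and 21.5 in S and 26.5, 32.4 and 28.1 in L and a log2 fold change of -0.97 ± 0.34 (interval -1.66 to -0.28, adjusted p = 0.9). In both genes S replicates 2 and 3 were the lowest libraries and US replicate 3 the highest. Cdk1 gave 9.18, 11.8 and 10.1 CPM in D, 13.7, 11.5 and 17.3 in US, 10.2, 5.49 and 7.52 in S and 10.6, 14.04 and 11.5 in L, with -0.87 ± 0.31 for S over US. The 7 helicase and clamp genes lay closer together, between -0.33 and -0.0029, and 0 of them had an unadjusted p under 0.05. The count rested on single libraries: without US replicate 3 the median was -0.50 and 2 members had an unadjusted p under 0.05, and without S replicate 2 the median was -0.54 and 1 did. The number was 9 without S replicate 3 and 25 without S replicate 1 or US replicate 2.

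**Figure D3:**
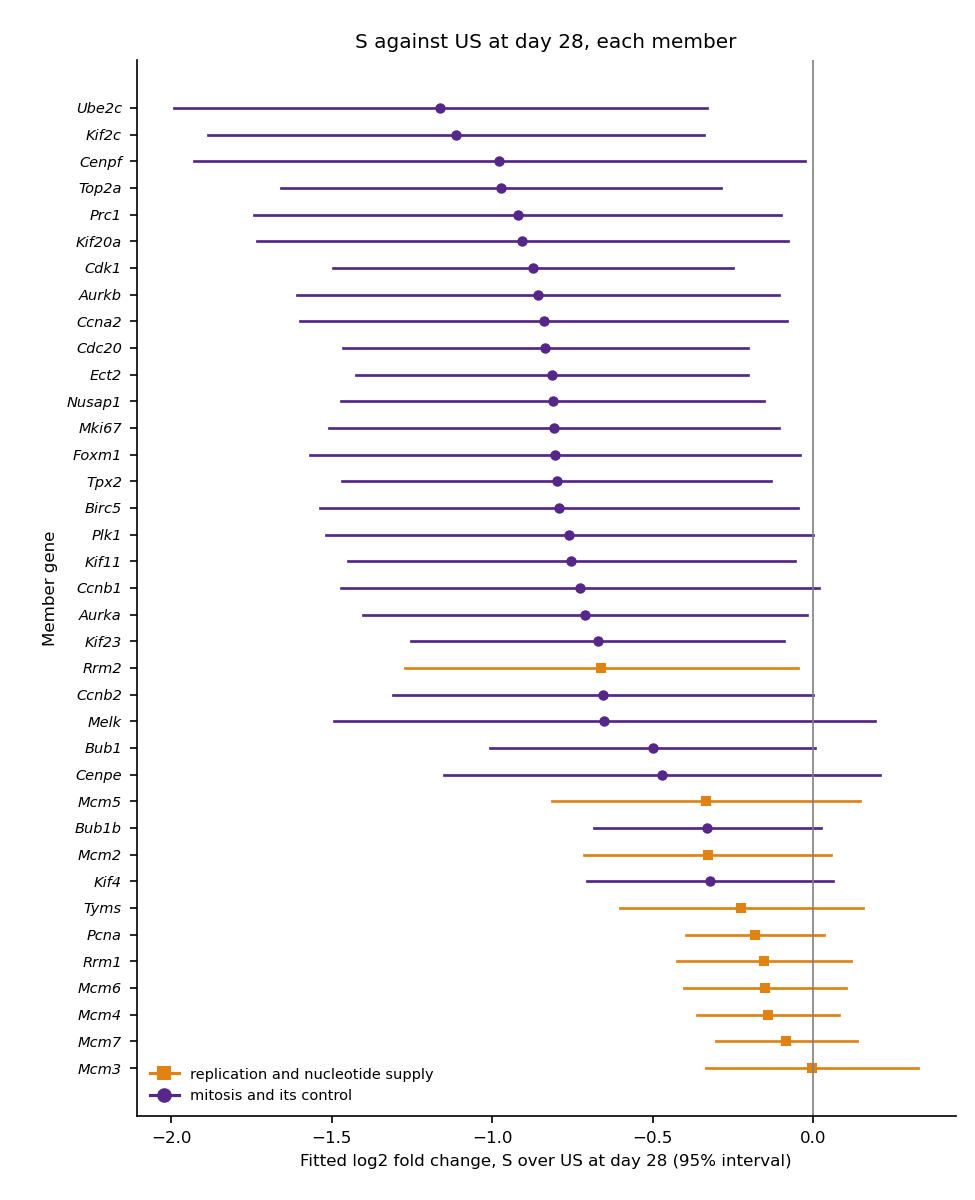
Fitted log2 fold change of S over US at day 28 for each of the 37 members with its 95% interval, sorted by value; squares are replication and nucleotide supply genes, circles mitosis genes. All 37 points lie below 0, 21 intervals end below 0, and the helicase and clamp genes are among the nearest to 0.

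US replicate 3 of day 28, the highest library for 15 of the 37 members among all 36, stood apart in T and NK cell markers too. The summed level of 12 T and NK cell markers was 209.7, 196 and 399 CPM in the US libraries, 211, 179 and 231 CPM in D, 244, 233 and 218 CPM in S and 243, 229 and 241 CPM in L. None of the 12 was at 0 in any of these groups. Monocyte and interstitial macrophage markers summed to 668, 626 and 814 CPM in US and 462, 534 and 708 CPM in D. In S they summed to 680.5, 605 and 506 CPM and in L to 814, 680 and 803 CPM. L replicates 1 and 3 were thus near US replicate 3 in these markers. In US replicates 1 to 3, thymocyte markers summed to 52.97, 47.12 and 69.73 CPM and alveolar type 2 markers to 34020, 35120 and 26770 CPM. Replicate 3 was the highest of all 36 libraries in the former and the lowest in the latter. In US against D, 0 of the 12 T and NK markers passed the test, and the part of all these cells in the member values was not tested. Without that library the median of US against D was 0.19, with 33 of 37 members above 0, and without US replicate 2 7 members had an unadjusted p under 0.05.

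In L against US at day 28, 36 of 37 fold changes were below 0, with a median of -0.37; 0 passed the adjusted test (0.515% of all genes) and 2 (Bub1 and Kif23) had an unadjusted p under 0.05 (11.3% of all genes). All US libraries lay above all L libraries in 11 members, which held for 12.5% of all genes. Bub1 measured 9.56, 10.3 and 9.55 CPM in D, 8.99, 11.2 and 13.1 in US, 8.59, 6.90 and 8.09 in S and 7.04, 7.91 and 6.39 in L and had a log2 fold change of -0.64 ± 0.25 (edgeR adjusted p = 0.3). Kif23 measured 12.0, 15.3 and 10.9 CPM in D, 16.4, 16.4 and 20.4 in US, 11.6, 9.57 and 12.3 in S and 10.9, 13.0 and 10.7 in L, with -0.62 ± 0.28 for L over US. L replicate 2, the highest L library in 23 members, lay closest to the US values in Kif23. Without US replicate 3 the median was -0.15, 32 members were below 0 and 0 had an unadjusted p under 0.05, and without L replicate 1 the median was -0.24.

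In S and L against D at day 28 the medians lay nearer to 0 than in S against US. In S against D, 0 of 37 passed the adjusted test (0.237% of all genes) and 0 had an unadjusted p under 0.05 (9.87% of all genes), with a median of -0.24. Leaving out S replicate 2 took that median to -0.097, leaving out S replicate 1 to -0.45 and leaving out D replicate 2 to -0.15. Ect2, which activates RhoA at the cleavage furrow, came first at 11.1, 13.1 and 9.30 CPM in D, 12.1, 11.9 and 16.6 in US, 9.02, 6.25 and 7.80 in S and 7.87, 9.75 and 9.12 in L (-0.54 ± 0.30 for S over D). Ube2c, the ubiquitin donor of the anaphase-promoting complex, came second at 5.41, 6.61 and 4.01 CPM in D, 5.82, 6.96 and 10.2 in US, 3.82, 2.22 and 4.27 in S and 4.51, 6.96 and 3.43 in L (-0.64 ± 0.41). S replicate 2 was the lowest library in both. In L against D, 0 of 37 passed the adjusted test (2.15% of all genes) and 0 had an unadjusted p under 0.05 (16.7% of all genes). The median was 0.014, with Bub1 (-0.46 ± 0.25) and Plk1 (0.52 ± 0.39) first. In L against S, 0 of 37 passed the adjusted test (0.0651% of all genes) and 1 (Cdk1, 0.64 ± 0.31) had an unadjusted p under 0.05 (3.76% of all genes), ahead of Kif2c (0.71 ± 0.39).

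The members of L against D at day 28, with 22 values above 0 and 15 below, stood beside large changes elsewhere in the same libraries. Of 10 genes of particle-laden macrophages 9 rose in L against D, led by Mmp12, a macrophage elastase, at 5.14 ± 0.49 (adjusted p = 1.864e-07), and Gpnmb, a lysosomal glycoprotein, at 4.70 ± 0.50 (adjusted p = 1.006e-06, both edgeR). The summed level of those 10 genes was 2961, 1394 and 2701 CPM in L and 590.4, 684 and 742 CPM in D. The summed level of the 37 members ran from 564.5 to 632.9 CPM in the same L libraries and from 547.6 to 669.7 CPM in D.

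**Figure D4:**
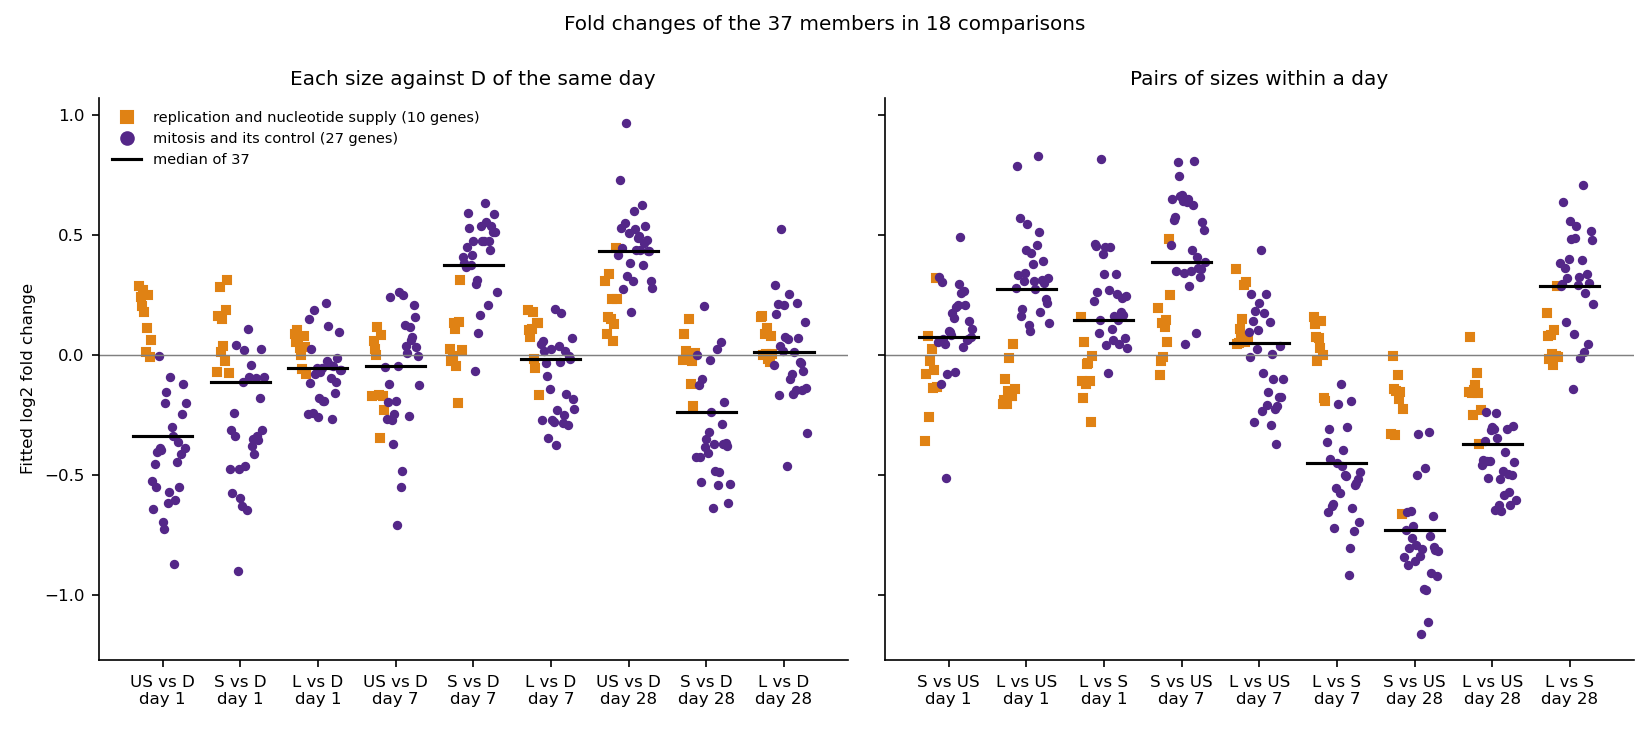
Fitted log2 fold changes of the 37 members in 9 comparisons with D (left) and 9 between sizes (right); squares are the 10 replication and nucleotide supply genes, circles the 27 mitosis genes, and black bars the median of all 37. In US against D at day 28 all 37 symbols lie above 0, in S against D at day 7 32 of them do, and in S against US at day 28 all 37 lie below 0 with the black bar at -0.73.

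In the carrier-treated mice no member passed the test over time. Between days 1 and 7, 0 of 37 passed the adjusted test (0% of all genes) and 2 (Kif4, -0.40 ± 0.19, and Bub1b, -0.37 ± 0.18) had an unadjusted p under 0.05 (24.2% of all genes). Kif4 in D measured 6.71, 8.10 and 7.48 CPM at day 1, 5.34, 5.33 and 6.15 at day 7 and 6.67, 5.58 and 6.23 at day 28. Bub1b, the checkpoint protein BubR1, measured 15.8, 17.5 and 13.2 CPM, then 10.7, 10.1 and 15.1 and then 12.8, 15.4 and 14.1. In both genes the day 7 values were the lowest on average. Without D day 7 replicate 3 the count was 11 and the median went from -0.23 to -0.47, and without D day 7 replicate 2 they were 0 and -0.015. Between days 1 and 28, 0 of 37 passed the adjusted test (0.0769% of all genes) and 0 had an unadjusted p under 0.05 (5.4% of all genes), with Mcm7 (-0.20 ± 0.11) and Plk1 (-0.58 ± 0.39) first. Between days 7 and 28, the comparison in which most genes changed, 0 of 37 passed the adjusted test (15.6% of all genes) and 1 (Mcm7, -0.23 ± 0.11) had an unadjusted p under 0.05 (34.9% of all genes). Mcm7 in D measured 34.0, 35.2 and 39.8 CPM at day 1, 41.1, 32.3 and 37.6 at day 7 and 29.1, 34.2 and 31.5 at day 28. Ect2 came second, at 6.27, 5.06 and 11.8 CPM on day 7 and 11.1, 13.1 and 9.30 CPM on day 28, a log2 fold change of 0.53 ± 0.30; without D day 7 replicate 3 it was 0.96 and passed the test (edgeR adjusted p = 0.0306). Without that library 12 members had an unadjusted p under 0.05, and the median went from 0.12 to 0.42.

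Whether the effect of a size differed between days was tested with interaction terms, in which 0 of 333 member tests passed (smallest edgeR adjusted p 0.158). The interaction of US between days 1 and 28 had the most members at an unadjusted p under 0.05: 10 of 37 (all of them mitosis genes), where 10.8% of all genes had one and 0.0473% passed the adjusted test against 0 of the 37. Its median was 0.69, led by Kif4 (0.82 ± 0.27) and Cdc20 (1.21 ± 0.44). The count was 20 and the median 1.084 without US day 1 replicate 2, and the count was 3 without US day 1 replicate 1 or US day 28 replicate 3. For US between days 7 and 28 all 37 values were above 0, with 5 members at an unadjusted p under 0.05 (17.7% of all genes) and 0 at the adjusted threshold (0.136% of all genes); Pcna (0.41 ± 0.15) and Cdc20 (1.15 ± 0.44) came first. Without D day 7 replicate 3 its median went from 0.41 to 0.18, with 25 of 37 above 0 and 2 at an unadjusted p under 0.05, and without US day 28 replicate 3 to 0.23, with 30 above 0 and 3 at that p. Leaving out D day 7 replicate 2 took it to 0.62. For US between days 1 and 7, 2 members had an unadjusted p under 0.05 (15% of all genes) and 0 passed the adjusted test (0.136% of all genes), with Pcna at -0.46 ± 0.15 and Kif4 at 0.56 ± 0.27. Without D day 7 replicate 3 the count was 7.

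Cdc20, Kif4 and Pcna led the US interactions. Cdc20 measured 6.58, 10.8 and 10.6 CPM in D, 3.65, 9.42 and 5.21 in US, 7.65, 7.00 and 5.63 in S and 6.97, 10.4 and 7.15 in L at day 1 and 9.29, 9.17 and 8.06 CPM in D, 14.3, 11.8 and 14.1 in US, 9.59, 5.39 and 7.52 in S and 7.67, 14.7 and 9.29 in L at day 28. Its US values lay above all D values at day 28, and at day 1 2 of them lay below all D values. Kif4 in US measured 6.59, 6.49 and 5.17 CPM at day 7 and 7.55, 6.92 and 9.53 CPM at day 28, the latter all above the D values of that day. Pcna measured 74.4, 76.9 and 80.7 CPM in D, 75.4, 69.1 and 97.2 in US, 74.8, 70.7 and 67.7 in S and 75.6, 75.1 and 78.7 in L at day 28, where US replicate 3 was the highest and US replicate 2 lay under every D library.

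For S the interaction medians before and after day 7 had opposite signs. The day 7 libraries enter these 2 contrasts with opposite sign, so a high S library at day 7 by itself moves the medians in opposite directions. Between days 1 and 7 the median interaction was 0.56, with 4 members at an unadjusted p under 0.05 (9.79% of all genes) and 0 at the adjusted threshold (0% of all genes). Plk1 (1.27 ± 0.54) and Kif4 (0.62 ± 0.27) led it. Plk1 measured 3.60, 1.96 and 3.80 CPM in D, 2.96, 2.22 and 2.05 in US, 6.05, 3.07 and 3.22 in S and 2.29, 2.50 and 2.58 in L at day 7, and Kif4 8.00, 6.45 and 5.03 CPM in S. For both genes S replicate 1 was the highest library of that day. Between days 7 and 28 the median was -0.62, with 2 members at an unadjusted p under 0.05 (7.37% of all genes) and 0 at the adjusted threshold (0.0296% of all genes). Foxm1, a transcription factor of G2 and M phase genes, came first at -1.12 ± 0.53, from S values of 14.3, 6.07 and 4.94 CPM at day 7 and 6.82, 3.48 and 5.64 CPM at day 28. In D it read 4.24, 3.43 and 8.85 CPM and then 6.23, 9.23 and 7.57 CPM, and the groups overlapped on both days. Nusap1, which bundles spindle microtubules, was second at -0.96 ± 0.46. It read 18.8, 8.53 and 6.05 CPM in S and 6.39, 5.39 and 10.2 CPM in D at day 7, then 10.2, 5.64 and 7.40 CPM in S and 9.84, 12.6 and 7.82 CPM in D at day 28, with 1 S library far above the rest at day 7. Both medians rested on S day 7 replicate 1, and were 0.10 and -0.085 without it. Without D day 7 replicate 3 they were 0.87 and -0.88, and the counts at an unadjusted p under 0.05 were 15 and 16. Without S day 7 replicate 3 the counts were 10 and 14.

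Between days 1 and 28, 0 members had an unadjusted p under 0.05 for S (21.1% of all genes) and 0 passed the adjusted test (0.195% of all genes), with Plk1 at 1.10 ± 0.55 and Mcm4 at -0.27 ± 0.15. For L, 0 members had an unadjusted p under 0.05 between days 1 and 7 (3.33% of all genes), between days 7 and 28 (5.35% of all genes) and between days 1 and 28 (12.5% of all genes). The adjusted test passed 0 members there, against 0%, 0% and 0.243% of all genes in the same order. Kif4 and Bub1b led the first of these (0.28 ± 0.27 and 0.24 ± 0.25), Plk1 and Cdc20 the second (0.87 ± 0.55 and 0.63 ± 0.44), and Kif4 and Plk1 the third (0.33 ± 0.27 and 0.60 ± 0.54). Kif4 in L measured 4.94, 5.16 and 6.93 CPM at day 7 and 6.79, 6.35 and 6.28 CPM at day 28. Bub1b in L measured 14.8, 17.6 and 12.3 CPM at day 1 and 10.98, 13.6 and 16.5 CPM at day 7. Mcm4 measured 40.0, 34.8 and 33.8 CPM in S and 32.5, 39.7 and 35.1 CPM in D at day 28. The L values of Kif4 and Bub1b and the S values of Mcm4 overlapped those of D on these days.

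How far the members varied between libraries differed by role. From the lowest to the highest of the 36 libraries, the 10 replication and nucleotide genes ranged over 1.47-fold (Mcm7) to 2.80-fold (Rrm2), and the 27 mitosis genes over 2.07-fold (Bub1b) to 8.94-fold (Cenpf). Cenpf, the large kinetochore protein, ran from 1.93 CPM in US day 1 replicate 1 to 17.2 CPM in S day 7 replicate 1. Rrm2, the cell-cycle regulated subunit of ribonucleotide reductase, ran from 7.32 to 20.5 CPM, while its partner Rrm1 ran from 37.7 to 61.2 CPM. The median SD within a group was 0.187 on the log2 scale for the replication and nucleotide genes and 0.456 for the mitosis genes, beside 0.214 over all tested genes. Counting error alone gives medians of 0.057 and 0.123 for those sets.

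The mitosis genes were high and low together from library to library. The highest value of each of the 37 genes was in 1 of 3 libraries: S day 7 replicate 1 (19 genes), US day 28 replicate 3 (15 genes) or US day 1 replicate 2 (Mcm2, Mcm3 and Mcm7). Over the 36 libraries, the correlation (Pearson's r of log2 CPM, given as a description since all genes share each library) with the mean of the other 36 members was highest for Top2a, at 0.954, Tpx2, the activator of Aurora A, at 0.948, and Kif11, the motor that separates spindle poles, at 0.941 (n = 36 libraries). It was lowest for Pcna, at 0.220, Mcm3, at 0.321, and Mcm4, at 0.354. With each group's mean removed it was 0.368 for Pcna, 0.549 for Mcm3 and 0.640 for Mcm4. In that setting Mcm6, at 0.722, Mcm7, at 0.714, and Mcm2, at 0.703, were level with Bub1b, at 0.700, and Bub1, at 0.685. Of the 37 members 27 are mitosis genes, so the mean of the other members mostly reflects mitosis genes. Outside the list, the genes whose log2 CPM was most like the mean of the members were Nuf2 (r = 0.929), a kinetochore protein, Esco2 (0.918), an acetyltransferase for sister chromatid cohesion, Cep55 (0.917), a protein of abscission, Aspm (0.915), a spindle pole protein, and Iqgap3 (0.913), over the same 36 libraries. With each group's mean removed they were Ckap2 (0.944), Pbk (0.937), Nuf2 (0.935), Ncapg (0.933) and Esco2 (0.929).

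**Figure D5:**
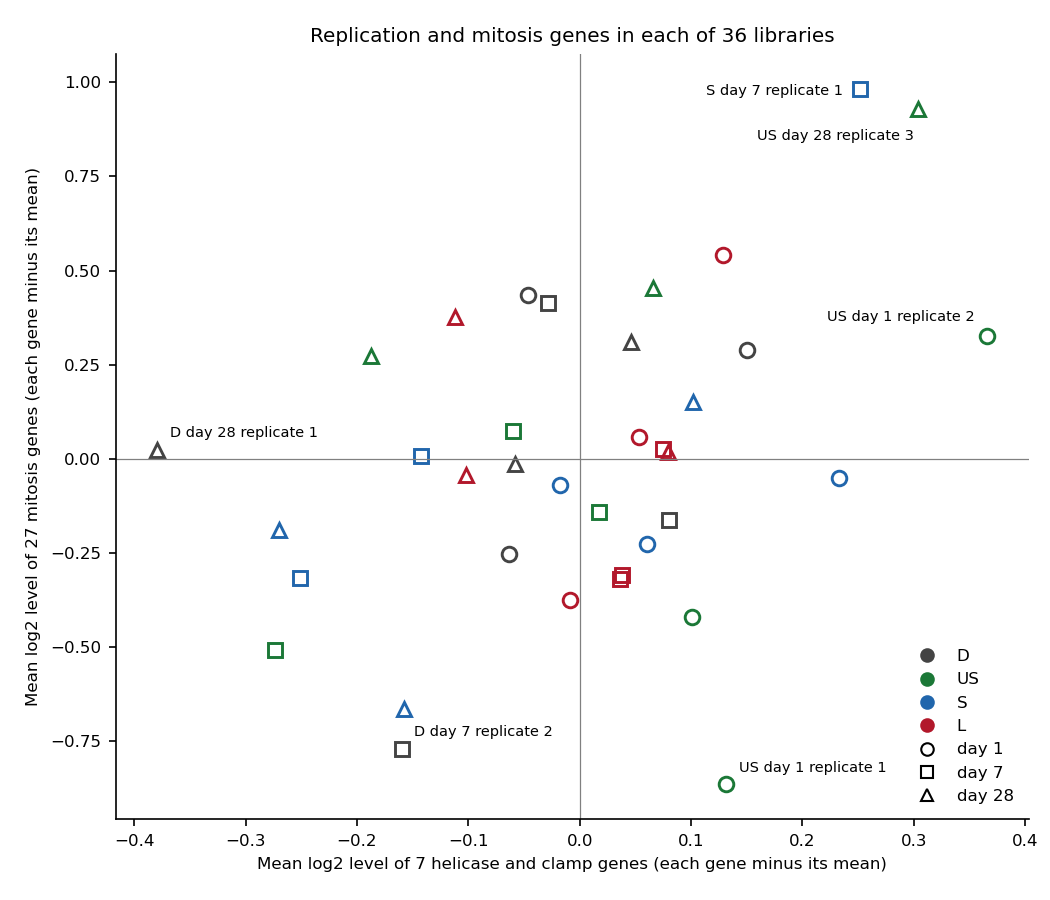
Each point is 1 of the 36 libraries: the x axis is the mean log2 level of the 7 helicase and clamp genes and the y axis that of the 27 mitosis genes, each gene taken relative to its own mean; colour gives the material and shape the day. The y axis spans about -0.86 to 0.98 and the x axis -0.38 to 0.37, and US day 1 replicate 1 lies low on the y axis at an x value above 0.

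The promoters of the members are described here for the 2 arms, replication with nucleotide supply and mitosis. Whether their motifs bear on how far the genes varied between libraries was not tested. RefSeq windows on GRCm38.p6, from 250 bases before to 50 bases after the annotated start, were held for 31 of the 37 members and for 27025 genes in all; Ccna2, Foxm1, Aurkb, Kif20a, Tpx2 and Mcm4 had none. They were searched on both strands for 3 motifs: the cell cycle homology region (TTTGAA or TTCGAA), known from G2 and M phase promoters, the CCAAT box (CCAAT), and an E2F site (TTCCCGC or TTGGCGC), known from G1 to S promoters. An E2F site read on the other strand can overlap a CCAAT box. The cell cycle homology letters were in 17 of 22 mitosis genes (77.3%), 2 of 9 replication and nucleotide genes (22.2%) and 21.7% of all windows. E2F letters were in 4 of the 22 (18.2%), 5 of the 9 (55.6%) and 7.79% of all windows. CCAAT was in 18 of the 22 (81.8%), 8 of the 9 (88.9%) and 41.1% of all windows. The mitosis genes without cell cycle homology letters in the window were Ccnb1, Melk, Birc5, Cenpe and Nusap1. A match is a description of letters, not a bound site. For some members, among them Kif2c, Mcm7, Kif4, Pcna and Ccnb1, the RefSeq start lies inside the gene's span in the annotation of the files. All bases printed for Pcna below lie within its annotated span.

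The 120 bases before the start are printed for 5 mitosis genes with high or varying levels above (Top2a, Ube2c, Cdk1, Cdc20 and Mki67) and for 3 genes of the replication arm with small ranges (Mcm6, Rrm1 and Pcna), chosen after their matches were seen. Capitals mark matches to the 3 motifs on either strand, so a motif of the other strand appears as its reverse complement.
Top2a (chr11:99024190-99024309, minus strand): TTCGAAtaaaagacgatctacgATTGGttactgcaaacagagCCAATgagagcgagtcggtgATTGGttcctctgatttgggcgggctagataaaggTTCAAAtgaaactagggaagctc
Ube2c (chr2:164769809-164769928, plus strand): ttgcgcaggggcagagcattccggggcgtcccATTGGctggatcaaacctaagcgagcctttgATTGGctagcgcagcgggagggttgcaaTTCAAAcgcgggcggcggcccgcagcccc
Cdk1 (chr10:69352913-69353032, minus strand): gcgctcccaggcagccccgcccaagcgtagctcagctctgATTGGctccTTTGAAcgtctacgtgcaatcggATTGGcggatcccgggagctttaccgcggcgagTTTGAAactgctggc
Cdc20 (chr4:118437344-118437463, minus strand): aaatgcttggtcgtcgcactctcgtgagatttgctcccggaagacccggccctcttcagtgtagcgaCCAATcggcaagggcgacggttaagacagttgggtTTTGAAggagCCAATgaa
Mki67 (chr7:135716380-135716499, minus strand): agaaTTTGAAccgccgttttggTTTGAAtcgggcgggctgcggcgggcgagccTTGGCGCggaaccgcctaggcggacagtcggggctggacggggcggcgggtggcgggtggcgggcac
Mcm6 (chr1:128359706-128359825, minus strand): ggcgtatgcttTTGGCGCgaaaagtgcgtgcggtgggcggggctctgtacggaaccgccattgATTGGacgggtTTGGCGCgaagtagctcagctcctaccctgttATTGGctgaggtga
Rrm1 (chr7:102441575-102441694, plus strand): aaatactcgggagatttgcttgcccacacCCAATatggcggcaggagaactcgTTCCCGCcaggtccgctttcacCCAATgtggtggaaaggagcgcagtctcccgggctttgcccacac
Pcna (chr2:132253181-132253300, minus strand): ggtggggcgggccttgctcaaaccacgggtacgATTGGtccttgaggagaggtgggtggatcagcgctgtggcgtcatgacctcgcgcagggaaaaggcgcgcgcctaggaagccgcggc

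Top2a and Cdk1 each held more than one cell cycle homology match and more than one CCAAT box within those bases, and Ube2c held a single homology match beside its CCAAT boxes. Mcm6 held E2F letters at a pair of places beside CCAAT boxes, Rrm1 at a single place, and Pcna had a CCAAT box only.

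Few genes of the cell cycle outside the members passed the test. Of the further genes in 5 lists (18 of G1 to S control, 12 inhibitors and p53 brakes, 27 of replication origins and forks, 47 other mitosis genes, and 12 of DNA repair in S phase), all were tested and 0 passed the test in 27 of the 30 comparisons. Tipin, which protects stalled forks, rose in S against D at day 28 (0.53 ± 0.12, edgeR adjusted p = 0.0348) and in L against D at day 28 (0.48 ± 0.12, adjusted p = 0.0227), 2 comparisons that share the D libraries. It was the single call of the 5 lists in each, where 0.237% and 2.15% of all genes passed. Genes of the circadian clock passed in both as well. Nr1d1 stood at 2.88 ± 0.39 in S and 3.83 ± 0.40 in L, and Nr1d2 at 1.62 ± 0.21 and 2.53 ± 0.22. The part of the clock in the Tipin values was not tested. Between days 7 and 28 in D, 4 genes of the 5 lists rose and 5 fell, in a comparison where 15.6% of all genes passed the test. Among them Pola1, the catalytic subunit of DNA polymerase alpha, rose by 0.77 ± 0.20 and Ccnd2, a G1 cyclin, by 0.49 ± 0.13, while Pttg1, the anaphase inhibitor securin, was at -0.74 ± 0.23 and Tipin at -0.47 ± 0.12. In the same contrast markers of airway and blood cells moved as well (3 of 7 measured erythroid markers rose, and 3 of 8 club and secretory airway markers fell). Clock genes moved too, with Nr1d2 at -1.745 ± 0.21 and Cry1 at 1.559 ± 0.19 (edgeR adjusted p = 4.833e-05 for each). The part of these cells and of the clock in the cell cycle values was not tested.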

How the data were processed

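RNA of 36 mouse lung libraries in 12 groups of 3 was measured by stranded poly(A) sequencing, per the labels' protocols. STAR 2.5.1b, featureCounts 1.5.1, StringTie 1.3.3, bcl2fastq 2.19.1.403 and CASAVA are named, without roles, in the submitters' processing notes, as are the builds GRCh37 and GRCm38; the scaffold names in the files are those of GRCm38. The annotation release is not given in the sources used here. The deposited table holds whole counts per Ensembl gene. The authors' deposited gene tables also give TPM, used here for levels per length and 1 alternative, and FPKM and coverage, a mean read signal, which were not used.

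The 37 members and all gene lists were chosen with earlier results of these data known. Genes were filtered with edgeR's filterByExpr, which left 16903. TMM factors of 0.9322 to 1.059 scaled the counts, which were fitted over all 36 libraries with a mean per group in edgeR 4.0.16 (R 4.3.3). In each of 30 comparisons the quasi-likelihood F test was used (two-sided), adjusted by Benjamini-Hochberg over all tested genes (threshold 0.05): 9 of a size with D, 9 between sizes, 3 over time in D and 9 interactions. SE is the absolute log2 fold change over the square root of F, and intervals use the moderated degrees of freedom at 95%. CPM uses TMM-scaled totals. The pipeline was tested on simulated data. Chi-square per degree of freedom between libraries of a group was at least 6.534, so none was taken as a duplicate. Depth ran from 16154696 to 80566751 counts.

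Named with values in every library of the groups compared were, per comparison, called members (up to 8) or, with none called, the 2 of smallest p, besides Mki67; other pathway lists are given by counts and up to 3 called genes. Genes outside this rule (Top2a at day 7, Cenpf, Rrm1, Rrm2, Tpx2, Kif11 and the promoter examples) were chosen after their values were seen. Alternatives were RLE scaling, no filter, a replicate block, DESeq2 1.42.0, limma 3.58.1 on log2(TPM + 1) at a mean TPM of at least 1, only the groups compared, thinning S day 7 replicate 2, and leaving out each library. Promoter windows are RefSeq's on GRCm38.p6.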

Additional observations from a re-analysis of the deposited data

How the results depend on the processing

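Of 419 recomputed counts of members passing the test, 413 were 0, as in the report. The alternatives RLE scaling, no filter on low counts, limma on log2(TPM + 1) and thinning of S day 7 replicate 2 gave 0 in every comparison they were run on. With DESeq2, 1 member passed in US against D at day 7 (Pcna), and 13 member p-values were set to NA by DESeq2 and stay out of the count. With only the groups compared in the fit, 1 passed in S against D at day 1 (Birc5, -0.63, edgeR adjusted p = 0.0491). On leaving out 1 library the count ran from 0 to 2 in US against D at day 1, from 0 to 1 in US against D at day 7 (Pcna, without D replicate 3 or US replicate 2) and from 0 to 1 in D between days 7 and 28 (Ect2), and stayed at 0 in the other comparisons.

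The replicate block gave 0 members in every comparison. Same-numbered libraries did not deviate together: over 27 pairs the correlation ran from -0.238 to 0.371, 5 pairs were above 0.1 and no comparison had all its pairs above 0.1, so the numbers were not taken to pair the libraries.

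The medians of the members depended on single libraries. On leaving out 1 library of the groups compared, the median kept its sign each time in 13 of the 30 comparisons and changed sign at least once in 17, among them L against D on every day. It moved by over 1.5 times at least once in 29 of the 30; the exception was S against US at day 28, where it ran from -0.94 to -0.50, while its count of members at an unadjusted p under 0.05 ran from 1 to 25. The US interaction between days 1 and 7 had a median of 0.15, which ran from -0.033 to 0.59.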
